A study of Mus musculus with 81 samples.

Results

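Atf3 is a mouse gene on chromosome 1 whose introns hold remnants of endogenous retroviruses, the long terminal repeats (LTRs) that RepeatMasker lists in the GRCm38 genome. All LTR loci inside the GENCODE gene body of Atf3 (ENSMUSG00000026628.13, chr1:191170296-191218039, minus strand) were taken, which gave 12 of the 970384 loci in the expression tables. The gene was selected on its measured values, the difference of its LTR levels between tributyltin (TBT) and DMSO libraries of F1 P6 cells. The F1 P6 values are therefore a description, and tests are given for the other populations and for DNA methylation.

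The mice carried the OG2 transgene, EGFP under the Pou5f1 promoter and distal enhancer, on a C57BL/6J background. F0 dams drank water with 50 nM TBT, an organotin and obesogen, or with the DMSO vehicle, from before mating through pregnancy and, for litters that were raised, through lactation. The F1 fetuses were thus exposed in utero, whereas the F3 fetuses descend from exposed great-grandmothers and were not themselves exposed. Fetal testes were dissected at E18.5 and sorted by FACS into EGFP-positive germline cells, split by side scatter into P4 and P5, and EGFP-negative P6 cells, a mixture of every somatic cell type of the testis. RNA libraries, primed on poly(A) tails, numbered 5 DMSO and 7 TBT for F1 P4, 4 and 7 for F1 P5, and 5 and 7 for F1 P6. Each F3 population was represented by 4 DMSO and 5 TBT libraries. Methylated DNA of P6 cells was captured with a methyl-binding domain protein (MBD-seq) in 3 DMSO and 4 TBT libraries of F1 and in 5 and 7 of F3. The labels do not say which libraries come from 1 litter, so p-values measure the spread between libraries only. Germline libraries of F1 carry a first number (43, 44 and 48 for DMSO, 45 and 47 for TBT) whose meaning the labels do not give, and the exact permutation tests take all libraries as exchangeable.

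ATF3 is a transcription factor of the CREB/ATF family with a basic leucine zipper (bZIP). Its gene is nearly silent in many resting cells and is switched on within hours by stresses such as amino acid shortage, unfolded proteins in the endoplasmic reticulum, DNA damage and inflammatory signals. ATF4, a bZIP protein of the integrated stress response, is among its known inducers, and ATF3 itself acts on target genes alone or with partners such as JUN.

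Of the 12 loci, 3 carried nearly all the reads, and all 3 lie in 1 intron. This intron spans chr1:191172483-191177230 (4748 bp) and is the third of 4 gaps between exons, counted from the 5′ end of the longest transcript. It holds 2 loci of MTEa, a species of the ERVL-MaLR class, at chr1:191173299-191173422 and chr1:191173608-191173727, and 1 locus of RLTR20A4, an ERVK species, at chr1:191176899-191176968. None of the 12 loci touches an exon, and none lies in a second gene. The 3 sequences are shown because the Atf3 intron levels reported below were counted on them. They are from RefSeq GRCm38.p6, 5′ to 3′ on the strand of Atf3, with CpG sites in capitals.
MTEa at 191173299: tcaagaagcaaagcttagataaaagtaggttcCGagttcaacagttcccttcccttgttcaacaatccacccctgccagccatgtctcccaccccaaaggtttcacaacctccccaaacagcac
MTEa at 191173608: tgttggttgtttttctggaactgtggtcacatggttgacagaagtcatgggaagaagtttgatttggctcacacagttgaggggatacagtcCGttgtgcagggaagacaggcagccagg
RLTR20A4 at 191176899: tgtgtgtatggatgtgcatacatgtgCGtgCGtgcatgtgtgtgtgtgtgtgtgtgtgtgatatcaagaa
The MTEa loci hold 1 CpG each and RLTR20A4 holds 2, beside a run of TG repeats.

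The ends of this intron are shown because the 3 loci gave the same counts although they lie apart. The first line runs across the splice donor at chr1:191177191-191177250 and the second across the acceptor at chr1:191172463-191172522, from the same source and strand, with exon bases in capitals.
donor: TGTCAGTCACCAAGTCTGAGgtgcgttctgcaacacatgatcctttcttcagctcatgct
acceptor: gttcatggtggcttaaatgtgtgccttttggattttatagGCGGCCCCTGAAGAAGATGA
The intron begins with gt and ends with ag. Between the second MTEa locus and RLTR20A4 lie 3171 bp, and the reads are 75 nt long. Still, the 3 loci had equal read counts in 54 of 62 libraries, 7 of these with 0 reads at all 3, and the largest difference between them in any library was 3 reads. The counts did not grow with the length of the locus, which is 124, 120 and 70 bp. Many other introns had like values at both ends. Over 4382 introns of the F1 P6 table whose outermost LTR loci lie at least 1000 bp apart, with a mean of at least 20 reads at one of them, the lower value was a median of 0.997 of the higher. In 91.8% of the library values of these introns both ends matched within 5%, and over the 4 tables this share was 83.3% to 91.8%. In 40.5% to 57.6% of the introns of a table the ends matched in every library. Reads inside the LTRs and reads spliced across the whole intron and counted at each locus it holds cannot be told apart in these tables. The 3 loci are therefore not 3 independent measurements, and levels are given as their mean, and the values below need not be transcription from an LTR.

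The other 9 loci of the gene lie in the first gap, chr1:191183341-191217869 (34529 bp), which is an intron of the longest transcript only. They were almost empty, with values above 0 in 3 of 558 library values and 6 reads in total. RLTR17B_Mm had 2 reads (0.679 CPM) in F1 P6 TBT library 8. RLTR31D_MM had 1 read (0.209 CPM) in F1 P5 TBT library 47-3 and 3 reads (0.737 CPM) in F3 P5 TBT library 6. The nearest LTR locus outside the gene on the 3′ side, ORR1F, had reads in 2 of 62 libraries. The nearest on the 5′ side, MLT1A, had reads in 10, all of them germline libraries, with at most 7 reads.

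**Figure D1:**
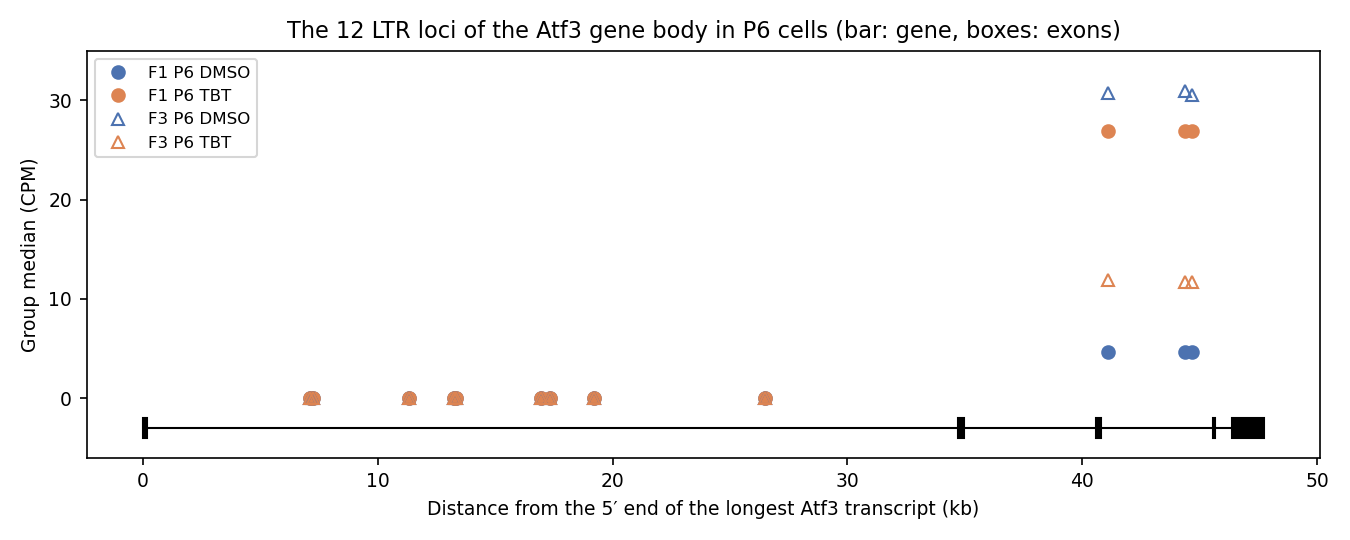
Group median of each of the 12 LTR loci (y axis, CPM) against its distance from the 5′ end of the longest Atf3 transcript (x axis, kb) in P6 cells. Filled circles are F1 and open triangles F3, blue is DMSO and orange TBT. The gene is drawn below the points with exons as boxes. The 9 loci of the first gap have a median of 0 in all 4 groups, and the 3 loci of the later intron sit together at each group's level.

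Levels are in CPM after the authors' TMM scaling, and 1 read was worth between 0.138 and 0.957 CPM in the F3 germline libraries. Germline and P6 cells, and F1 and F3, were scaled in 4 separate tables, so levels are set side by side between tables and tested only within one. Fitted differences are on the scale log2(CPM + 1 read), taken over the summed loci of the gene, and are tested with limma. The sum counts a read once for each locus it was assigned to, so that 1 read added to it weighs less than at a single locus. At low counts the difference of the sum is then larger than those of the loci. Fewer cells of a type and less RNA per cell cannot be told apart in such bulk libraries.

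In F1 P6 cells the Atf3 intron was low in most DMSO libraries and high in every TBT library. The mean of the 3 loci was 5.02, 3.00, 4.68 and 1.83 CPM in DMSO libraries 1 to 4 and 22.9 CPM in DMSO library 12. It was 17.9, 36.8, 26.9, 31.6, 35.5, 22.1 and 26.6 CPM in TBT libraries 5 to 11. Of the TBT libraries, 5 of 7 were above every DMSO library, and the other two (17.9 and 22.1 CPM) were above DMSO libraries 1 to 4 but below library 12, so the groups overlap through that 1 library. These levels rest on 6.33 to 80 reads per locus in the DMSO group and 66 to 135 in the TBT group. The group means were 7.49 ± 8.71 CPM (SD, n = 5) for DMSO and 28.2 ± 6.90 CPM (SD, n = 7) for TBT, a ratio of 3.76, while the ratio of the medians was 5.76. Without DMSO library 12 the DMSO mean was 3.63 ± 1.49 CPM (SD, n = 4).

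On the fitted scale the Atf3 sum differed by 2.44 ± 0.46 (SE) in F1 P6 cells, and by 2.99 without DMSO library 12. Of the 10632 gene sums tested, 47 had a larger positive difference. All 3 intron loci passed an FDR of 0.05 in this comparison and were the only loci that did, 0.00341% of the 88037 tested. The Atf3 sum did not pass (limma adjusted p = 0.253). This comparison chose the gene, so nothing is read from these calls. TBT libraries 7 and 8 stood apart, with 7.21% and 7.37% of reads at loci that lie in no gene, whereas the remaining 10 P6 libraries of F1 had 2.27% or less. Their Atf3 levels, 26.9 and 31.6 CPM, lie within the range of the other TBT libraries, whose mean was 27.8 ± 8.24 CPM (SD, n = 5).

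In F3 P6 cells the order was the other way round, with an intron level as high in DMSO libraries as in the TBT libraries of F1. The 4 DMSO libraries had 35.9, 13.5, 31.2 and 30.3 CPM, and TBT libraries 5 to 9 had 24.4, 8.83, 11.8, 5.38 and 26.7 CPM. Of the DMSO libraries, 3 of 4 were above every TBT library, and 3 of 5 TBT libraries were below every DMSO library, with DMSO library 2 and TBT libraries 5 and 9 making the overlap. The means were 27.7 ± 9.79 CPM (SD, n = 4) and 15.4 ± 9.56 CPM (SD, n = 5), from 60 to 181 and 26 to 172 reads per locus. The Atf3 sum had a fitted difference of -1.0 ± 0.47 (SE), which did not pass the threshold (limma adjusted p = 0.606). An exact two-sided permutation test of the sum alone gave p = 0.127. At the 3 loci the differences were -0.99, -1.0 and -0.99, and 0 of 3 passed (lowest limma adjusted p = 0.419), against 0.0343% of the 104835 loci tested. Of the 10845 gene sums, 276 had a larger negative difference than Atf3. The F1 and F3 P6 differences have opposite signs, but the tables were scaled apart and the difference between generations was not tested.

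**Figure D2:**
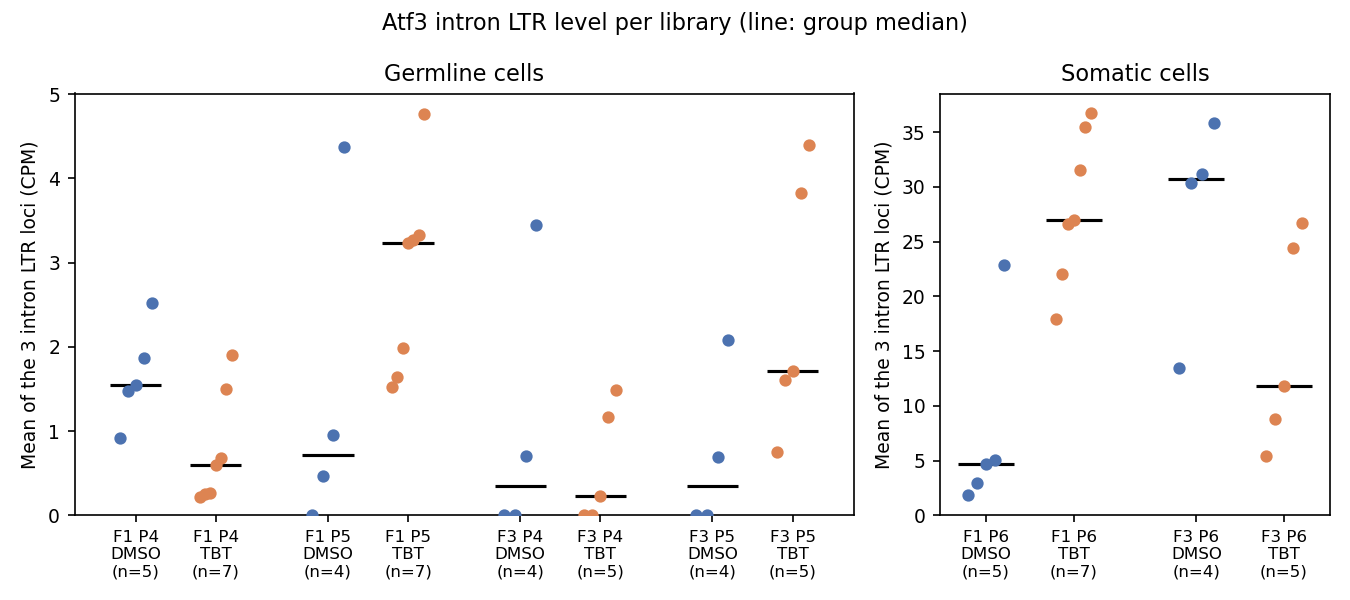
Mean of the 3 intron LTR loci in each library (y axis, CPM, from 0, with its own scale in each panel), by generation, population and exposure (x axis). Points are libraries, blue DMSO and orange TBT, and lines are group medians. F1 P6 DMSO library 12, at 22.9 CPM, lies among the TBT libraries. The germline libraries stay below 5 CPM.

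In germline cells the intron was close to the limit of counting. In F1 P4 cells the DMSO libraries 43-4, 43-5, 44-1, 44-3 and 48-4 had 1.55, 1.87, 0.924, 1.48 and 2.52 CPM. The TBT libraries 45-3, 45-4, 45-5, 47-1, 47-3, 47-4 and 47-5 had 0.213, 0.685, 0.597, 1.5, 1.90, 0.260 and 0.256 CPM. Of the 7 TBT libraries, 5 were below every DMSO library, and 47-1 and 47-3 were within the DMSO range. Since these are 1 to 11 reads per locus, a single read moves a library visibly. The sum differed by -1.34 ± 0.54 (SE; limma adjusted p = 0.724), and an exact permutation test of the sum alone gave p = 0.0391. With that first number as a random effect the limma adjusted p was 0.654. At the 3 loci, tested in the whole table, 0 of 3 passed (each at -1.12, limma adjusted p = 0.697), nor did any of the 93941 loci (0%). There 6656 loci had an unadjusted p under 0.05, and edgeR's likelihood ratio test passed 93.

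In F1 P5 cells the order was opposite to that in P4. The DMSO libraries 43-4, 43-5, 44-1 and 48-4 had 0.957, 0.467, 0 and 4.37 CPM. The TBT libraries, in the order given for P4, had 3.33, 3.24, 1.99, 4.77, 3.27, 1.65 and 1.52 CPM. All 7 TBT libraries were above 3 of the 4 DMSO libraries, and 48-4, at 26 reads per locus, was above all but 1 of them. The sum differed by 2.03 ± 0.79 (SE; limma adjusted p = 0.540), with p = 0.0333 by an exact permutation test of the sum alone. With that first number as a random effect it was 2.04 (limma adjusted p = 0.695). This size depends on the DMSO library at 0. Without 44-1 the difference was 1.00, without 48-4 it was 2.95, and edgeR gave 0.95. At the loci the differences were 1.53 to 1.60, and 0 of 3 passed (lowest limma adjusted p = 0.562), against 0.0111% of 108446.

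In F3 germline cells 2 of 4 DMSO libraries of each population held no read of the intron. The P4 DMSO libraries had 0, 0, 3.44 and 0.701 CPM, and the P4 TBT libraries 5 to 9 had 0, 1.49, 1.17, 0.233 and 0 CPM. The P5 DMSO libraries had 0, 0, 0.692 and 2.08 CPM, and the P5 TBT libraries 5 to 9 had 3.83, 1.72, 0.749, 1.60 and 4.39 CPM. All 5 TBT libraries of P5 had reads, 4 to 15 per locus, and 2 of the 5 were above every DMSO library. Of these 2, TBT library 5 rests on 4 reads per locus, with 33.8% of its reads at loci in no gene. The P5 DMSO libraries 1 and 2, both at 0, had 24.7% and 29.3% there, and the other P5 libraries of F3 6.45% to 12.5%. Counting error alone allows up to 3 reads behind a count of 0, which is 0.517 to 2.04 CPM in the 7 libraries at 0, in F1 and F3. A level of 0 therefore cannot be told from levels below the bound of its library. Whether the levels above 0 differ from one another is not settled by this bound.

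The sum differed by -0.15 ± 1.46 (SE; limma adjusted p = 0.983) in F3 P4 cells, where the median of all gene sums was itself shifted by -0.65, and the 3 loci, unlike their sum, were below the filter and not tested. In F3 P5 cells it differed by 2.70 ± 1.37 (SE; limma adjusted p = 1.00; exact permutation p = 0.0635). At the loci the differences were 1.87 to 1.96, and 0 of 3 passed, as did 0% of 112811. There 1167 loci had an unadjusted p under 0.05, and edgeR's likelihood ratio test passed 3785. In F3, 4 germline libraries held fewer than 2000000 reads, the lowest 246520 (P5 TBT library 5). Without them the difference was 1.17 in P4 cells (adjusted p = 0.760) and 1.84 in P5 cells (adjusted p = 0.876), both with limma.

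P4 and P5 cells were scaled in 1 table per generation, which allows the populations to be compared. The Atf3 sum was 0.73 ± 0.58 (SE) higher in P5 than in P4 cells of F1 on the log2 scale, averaged over the exposures, and did not pass (limma adjusted p = 0.317), while 44.5% of the 13088 gene sums did. Without the P5 DMSO library 44-1, which held 0 reads, the difference was 1.23 and passed (limma adjusted p = 0.0280). In F3 it was 1.40 ± 0.97 (SE; limma adjusted p = 0.562), with 1.89% of 13552 gene sums passing. The TBT difference in P5 minus that in P4 was 3.38 ± 0.99 (SE) in F1, with an unadjusted p of 0.00237 and a limma adjusted p of 0.895 over 13088 sums. In F3 it was 2.85 ± 1.91 (SE; limma adjusted p = 0.999), and 0.67 without the 4 libraries of fewest reads. No gene sum passed for this difference (0%), at 662 unadjusted p under 0.05 in F1 and 191 in F3. By edgeR's likelihood ratio test 3 and 11 passed, respectively, and by DESeq2 1 and 17.

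**Figure D3:**
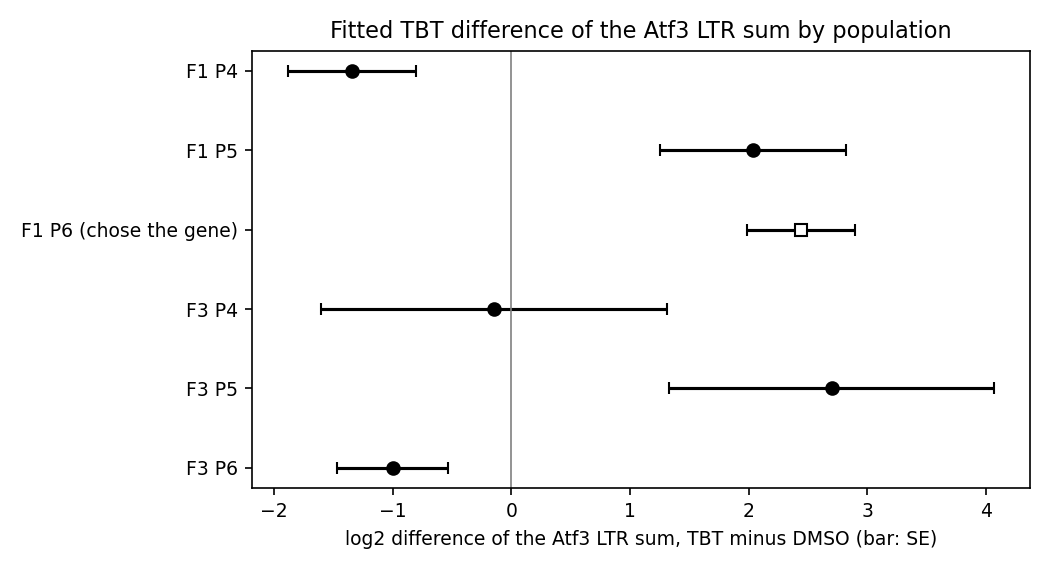
Fitted difference of the Atf3 LTR sum between TBT and DMSO libraries (x axis, log2 scale, bars are SE) for each population (y axis). The open square marks F1 P6, the comparison that chose the gene. F1 P5, F1 P6 and F3 P5 lie right of 0, F1 P4 and F3 P6 left of it, and F3 P4 spans it. None of the filled points passed the threshold.

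Ordered by group median, the intron level was 30.8 CPM in F3 P6 DMSO, 26.9 in F1 P6 TBT, 11.8 in F3 P6 TBT and 4.68 in F1 P6 DMSO. The germline groups followed with 3.24 CPM in F1 P5 TBT, 1.72 in F3 P5 TBT, 1.55 in F1 P4 DMSO and 0.712 in F1 P5 DMSO. Below these were 0.597 CPM in F1 P4 TBT, 0.350 in F3 P4 DMSO, 0.346 in F3 P5 DMSO and 0.233 in F3 P4 TBT. Every pair of neighbours in this order overlaps in its library values. Each of the P6 groups had a higher median than each of the germline groups.

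The sorts were checked on the summed intronic LTRs of marker genes. Of 11 germline markers, 9 could be measured, and their sum was 12146 to 21732 CPM in F1 P4 and 23.9 to 47.7 CPM in F1 P6 libraries. Gata4, a transcription factor of testicular somatic cells, had 313 to 459 CPM in F1 P6 and 1.54 to 24 CPM in F1 P4 cells. Some somatic markers did not separate the sorts. Dmrt1 of the Sertoli list, which germ cells express too, had medians of 643 CPM in F1 P4 and 439 CPM in F1 P6 cells. Cx3cr1 of the macrophage list had 65.0 and 30.7 CPM, and Flt1 of the endothelial list was also higher in P4. Cldn11 of the Sertoli list was near 0 in both. Sox9 and Amh, which define Sertoli cells, hold no such locus and were not measured. In F3 the sum of germline markers was as low as 1019 CPM in 1 P4 TBT library and 126 CPM in 1 P5 TBT library.

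The marker sums of other cell types overlapped between DMSO and TBT libraries and were not tested. In F1 P6 cells the sum of the 5 macrophage markers was 56.4 to 72.4 CPM in DMSO and 69.2 to 118 CPM in TBT libraries. Every TBT library but library 5 was above every DMSO library in this sum. DMSO library 12 had the highest macrophage sum of its group, 72.4 CPM, next to library 2 with 71.7 CPM and an Atf3 level of 3.00 CPM. The sum of the germline markers was 23.9 to 32.3 CPM in DMSO and 28.9 to 47.7 CPM in TBT libraries, with 32.3 CPM in library 12. Here every TBT library but library 10 was above every DMSO library. The sum of the 5 endothelial markers ran from 101 to 193 CPM in DMSO and from 33.9 to 167 CPM in TBT libraries. The sum of the 3 Leydig cell markers that could be measured ran from 173 to 254 CPM in DMSO and from 182 to 373 CPM in TBT libraries. The Sertoli sum was 957 to 1354 CPM in DMSO and 947 to 1195 CPM in TBT libraries, and the interstitial and peritubular sum 411 to 516 CPM and 429 to 492 CPM. Of the DMSO libraries, library 12 had the highest Leydig sum and the lowest endothelial and interstitial and peritubular sums. Its Sertoli sum, 1250 CPM, lay within the range of the others. In F3 P6 cells the macrophage sum was 76.2 to 98.7 CPM in DMSO and 70.1 to 82.7 CPM in TBT libraries. The endothelial sum was 99.1 to 133 CPM in DMSO and 130 to 165 CPM in TBT libraries, the opposite order to that of the Atf3 level, with DMSO library 4 making the overlap. The germline sum was 238 and 203 CPM in DMSO libraries 3 and 4, and 14.4 to 23.8 CPM in the other 7. None of the measured macrophage or endothelial markers was at 0 throughout a P6 group. The part of these cell types in the Atf3 levels was not tested.

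Genes related to ATF3 by pathway were read from their own intronic LTR sums. The 4 lists, of the integrated stress and unfolded protein response, immediate-early and AP-1 genes, bZIP relatives and partners of ATF3, and heat shock proteins and chaperones, hold 129 genes. Of these, 51 carry an LTR locus in an intron. The remaining genes could not be read in these tables, among them most of the immediate-early genes, of which 7 of 54 carry such a locus.

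In F1 P6 cells, which chose Atf3, 0 of 45 tested list genes passed the threshold of limma, against 0.00941% of the 10632 gene sums, and 5 were at an unadjusted p under 0.05, against 4.72%. The 5 tested immediate-early genes had fitted values above 0, with a median of 0.65 on the log2 scale against -0.01 over all gene sums, and for 3 of them (Fosl2, Ifrd1 and Rel) the SE was larger than the difference. Nfil3, a bZIP repressor, had 4.50 to 19.5 CPM in DMSO libraries (median 5.49) and 13.3 to 18 CPM in TBT libraries (median 15.4), and its highest DMSO library was again number 12. Errfi1, a feedback inhibitor of the EGF receptor, had medians of 9.87 CPM in DMSO and 11.9 CPM in TBT libraries. Fosl2, an AP-1 subunit, had 1.5 and 2.56 CPM.

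The other lists had median fitted differences near 0 in F1 P6 cells, with members on both sides. The medians were 0.03 for the 24 tested genes of the integrated stress and unfolded protein response, 0.01 for 11 bZIP genes and 0.01 for 5 heat shock genes. Pdia4, a protein disulfide isomerase of the endoplasmic reticulum, had medians of 420.5 CPM in DMSO and 440.1 CPM in TBT libraries. Sel1l, a subunit of the degradation complex of the endoplasmic reticulum, had 241 and 211 CPM, and Phgdh, an enzyme of serine synthesis that ATF4 controls, 253 and 259 CPM. Among the bZIP genes Atf2 had 112.5 and 109.7 CPM, Bach2 76.7 and 65.1 CPM, and Atf1 58.5 and 71.7 CPM. Of the heat shock list, Hspa4 had 146 and 142 CPM, and Hsf1 83.0 and 64.7 CPM. Hsph1, which assists HSP70 proteins, had 14.5 and 25.5 CPM. The fitted differences of Slc7a11, a cystine transporter, Crem, a bZIP factor of the cAMP response, and Hsph1 were 1.3 ± 0.59, 0.54 ± 0.21 and 0.57 ± 0.26 (SE), and that of Hsf2, a heat shock factor, was -0.73 ± 0.67 (SE).

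In F3 P6 cells 0 of 45 list genes passed (limma), against 0.00922% of 10845 gene sums, and 3 were at an unadjusted p under 0.05, against 8.46%. Nfil3 had 13.6 to 19.2 CPM in DMSO and 7.98 to 18.9 CPM in TBT libraries, a fitted difference of -0.50 (limma adjusted p = 0.650). Errfi1 had 13.2 to 19.6 CPM in DMSO and 20.04 to 23.7 CPM in TBT libraries, groups that do not overlap, with a difference of 0.41 (limma adjusted p = 0.518). Fosl2 had medians of 4.07 and 4.03 CPM. Of the 4 immediate-early genes tested here 2 had fitted values above 0. Sel1l had 209 to 229 CPM in DMSO and 244 to 302 CPM in TBT libraries, groups that do not overlap, with a difference of 0.32 (limma adjusted p = 0.323). DESeq2 passed Sel1l (adjusted p = 0.0143) and no other list gene, and 1.01% of all gene sums.

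Among germline comparisons of TBT with DMSO, 0 list genes passed in F1 P4 (47 tested), F1 P5 (48), F3 P4 (47) and F3 P5 cells (48) with limma. Of all gene sums 0% passed in each of the 4. At an unadjusted p under 0.05 were 3, 1, 0 and 0 list genes, against 6.89%, 7.68%, 1.76% and 0.875% of all gene sums. Between P5 and P4 cells of F1, 26 of 49 list genes differed, 15 higher and 11 lower in P5, where 44.5% of all gene sums differed. In the integrated stress and unfolded protein response list 12 were higher and 6 lower of 25. These F1 counts are not read as a result about the lists. Pdia4 was 6.0-fold, Sel1l 5.14-fold and Slc3a2, the heavy chain of amino acid transporters, 4.87-fold higher in P5 cells. Asns, the asparagine synthetase that ATF4 induces, was at 0.633 of its P4 level. Dusp1, an immediate-early phosphatase, was 4.46-fold higher, and Nfil3 was at 0.641. In F3, 0 of 47 passed with limma, against 1.89% of all gene sums, and 4 were at an unadjusted p under 0.05, against 13.9%. DESeq2 passed 4 of the 47 and 10.8% of all gene sums, edgeR's likelihood ratio test 2 and 6.11%, its quasi-likelihood test 0 and 2.74%, and limma with a replicate block 1 and 3.03%, so these counts are not a result about the lists.

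Around Atf3, within 500 kb on either side GENCODE lists 31 genes, of which 17 carry an intronic LTR locus and 12 were tested in each P6 table. Their fitted differences ran from -0.07 to 0.50 in F1 P6 cells and from -0.17 to 0.12 in F3 P6 cells, and 0 passed with limma in either, nor did any reach an unadjusted p under 0.05. Batf3, which encodes another bZIP factor, had 8.87 to 14.8 CPM in F1 P6 DMSO libraries and 9.86 to 21.5 CPM in TBT libraries. Nenf, the nearest tested gene on the 5′ side and the most abundant of the 12, had medians of 600.3 and 652 CPM. None of the neighbours passed with limma in the germline populations either, with 12 to 16 tested, against 0% of all gene sums. In F1 P5 cells Vash2 (0.87) and Tmem206 (-0.46) were at an unadjusted p under 0.05, as were 7.68% of all gene sums.

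**Figure D4:**
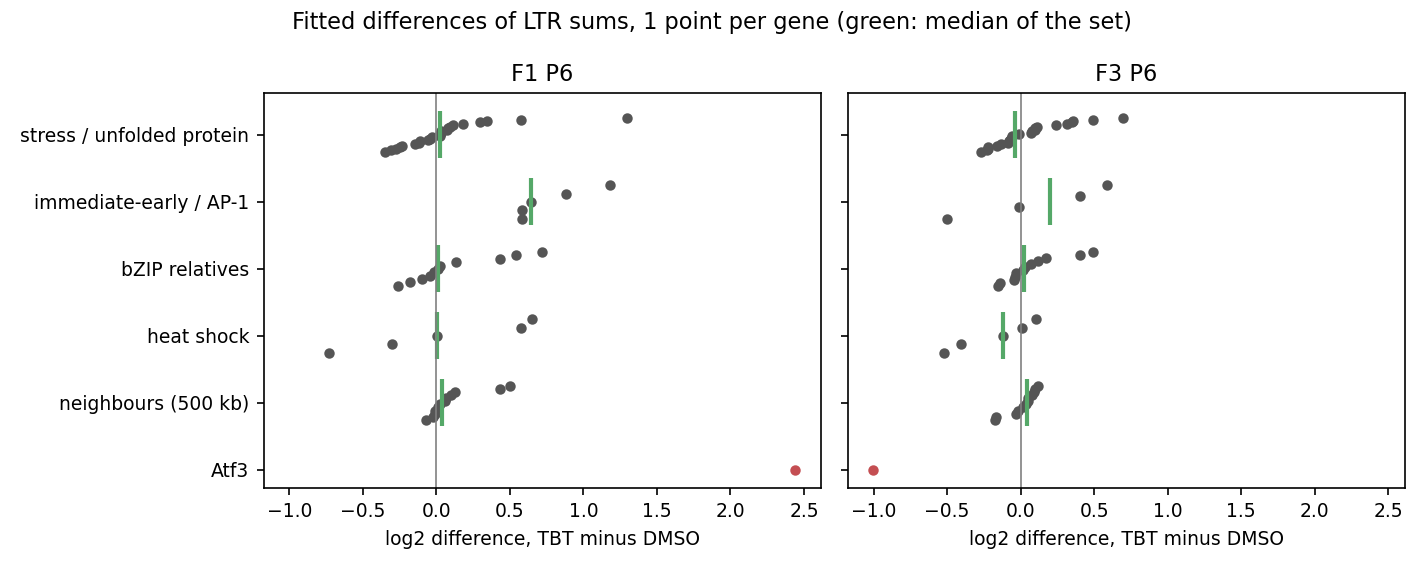
Fitted TBT minus DMSO difference of intronic LTR sums (x axis, log2 scale) for F1 P6 (left) and F3 P6 cells (right), 1 point per gene, by list (y axis). Green lines are the medians of the lists. Atf3, in red, lies at 2.44 in F1 P6 and at -1.0 in F3 P6 cells, outside the range of the listed genes and of its neighbours in both. The F1 P6 comparison chose the gene, so its place there is a description. In F3 P6 cells Atf3 did not pass the threshold (limma adjusted p = 0.606).

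The genes most like Atf3 across F1 P6 libraries were sought by the deviation of each library from its group mean, which leaves out the difference between the groups. Over 12 libraries the highest Pearson correlations among 8395 genes were those of Nfil3 (r = 0.881), Mark1 (0.879), Lmcd1 (0.867), Tnpo3 (0.834) and Cdyl2 (0.783). Mark1 encodes a microtubule kinase, Lmcd1 a LIM domain protein, Tnpo3 a nuclear import receptor and Cdyl2 a chromodomain protein. All 5 genes had their highest DMSO value in library 12. Without that library the values were 0.392, 0.773, 0.588, 0.540 and 0.296. Over the 9 F3 P6 libraries Nfil3 had r = 0.775, and the other four had negative values from -0.66 to -0.11. The 34 stress-response list genes with a value, Nfil3 among them, had a median r of -0.09 in F1 and 0.18 in F3. In F3 other list genes, such as Eif2ak1 (0.989) and Herpud1 (0.904), had higher values than Nfil3. These are descriptions over few libraries that share scaling and depth, and 5% of all genes lay above 0.463 in F1 and above 0.702 in F3.

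DNA methylation of Atf3 was read from 100 bp windows of MBD-seq of P6 cells. The deposited windows number 154773 in F1 and 164382 in F3. Of these, 7 lie in the gene body in F1 and 2 others in F3. The remaining stretches of the gene, among them the 5′ end of the longest transcript, hold no deposited window and could not be read. In F1, 2 of the windows lay in the intron with the 3 loci that carried RNA reads, starting at chr1:191175801 and chr1:191176201. Their mean values were 2.90 ± 3.39 and 7.97 ± 4.55 CPM (SD, n = 3) in DMSO and 2.57 ± 0.57 and 4.87 ± 1.69 CPM (SD, n = 4) in TBT libraries. With at most 11 reads in a library, both were below the filter and not tested, and neither covers an LTR locus.

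The windows with most reads lay on an LTR locus without RNA reads, MTEb at chr1:191200525-191200895 in the first gap. These windows, chr1:191200701-191200800 and chr1:191200801-191200900, are shown from RefSeq GRCm38.p6 on the strand of Atf3, with CpG sites in capitals, since they were the windows of Atf3 that could be tested in F1.
window 191200701: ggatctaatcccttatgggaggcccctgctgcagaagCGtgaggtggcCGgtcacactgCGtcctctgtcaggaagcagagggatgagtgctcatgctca
window 191200801: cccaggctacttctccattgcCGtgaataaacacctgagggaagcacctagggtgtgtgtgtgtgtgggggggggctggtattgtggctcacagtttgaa
The first holds 3 CpG sites and the second 1. The first had 23, 13 and 20 reads in the DMSO libraries and 26, 35, 23 and 49 in the TBT libraries, that is 21.7 ± 3.31 CPM (SD, n = 3) and 22.2 ± 3.75 CPM (SD, n = 4). The second stood at 13.7 ± 3.00 CPM (SD, n = 3) with DMSO, and at 16.1 ± 2.65 CPM (SD, n = 4) with TBT. The groups overlapped in both. The fitted log2 differences were 0.01 and 0.22, and 0 of 2 windows passed with edgeR's quasi-likelihood test (adjusted p = 0.996 for each), against 0.0318% of the 34559 windows tested.

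In F3, the window at chr1:191197401-191197500, which holds no CpG site, had 16.9 ± 1.18 CPM (SD, n = 5) in DMSO and 18.4 ± 4.51 CPM (SD, n = 7) in TBT libraries. It did not pass either (log2 difference 0.11, edgeR adjusted p = 0.988). Of the 47563 F3 windows tested 0% passed, with 2455 at an unadjusted p under 0.05 and 0 by DESeq2 or the likelihood ratio test. Summed over the windows of the gene, methylated DNA differed by 0.03 on the log2 scale in F1 (exact permutation p = 0.800, the smallest possible p being 0.0286). In F3 it differed by 0.09 (exact permutation p = 0.731). TBT library 6 of F3 had 12.1 CPM, against 20.8 to 32 CPM in the other TBT libraries. Without it the F3 difference was 0.25 and passed an unadjusted threshold of 0.05 (exact permutation p = 0.0303). Over the deposited windows alone the libraries held 701493 to 1913353 reads in F1 and 1105120 to 1556376 in F3. The tested windows of the gene carried 7 to 49 reads per library and its other windows 0 to 19.

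**Figure D5:**
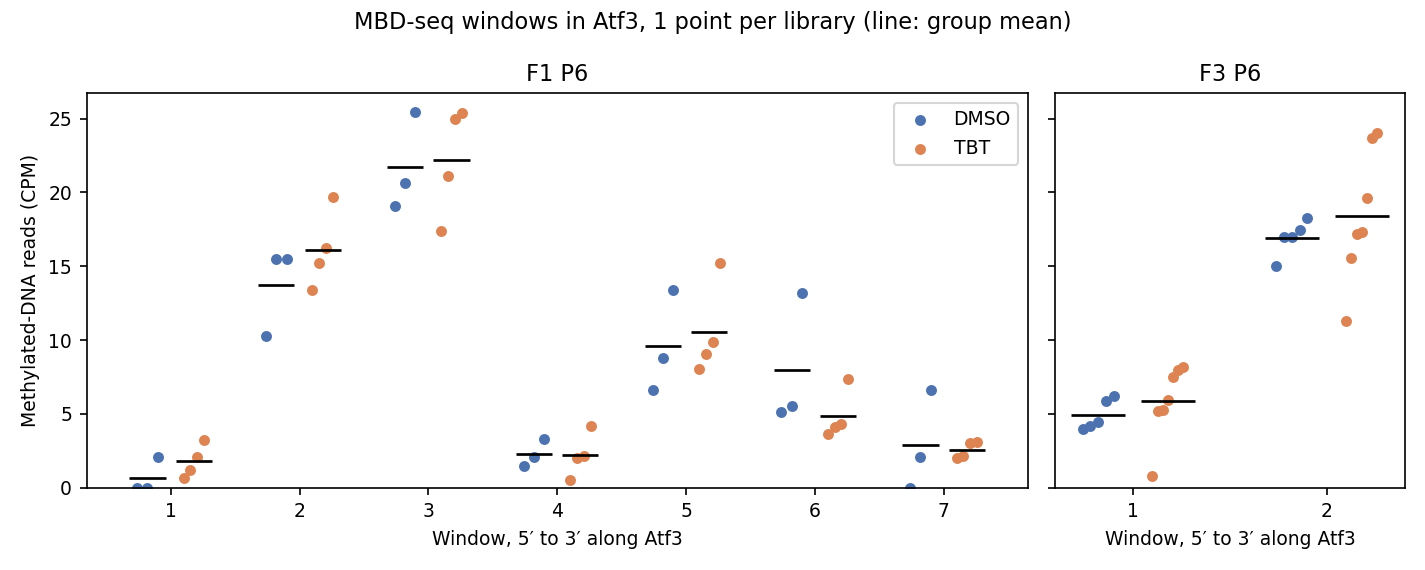
MBD-seq level (y axis, CPM) of the 7 windows of Atf3 in F1 P6 (left) and the 2 windows in F3 P6 cells (right), numbered from 5′ to 3′ along the gene (x axis). Points are libraries, blue DMSO and orange TBT, and lines are group means. In each window the values of both exposures overlap.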

How the data were processed

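The authors trimmed the reads (75 nt pairs) with Trim Galore, aligned them with STAR to GRCm38 (mm10) and counted LTR loci of RepeatMasker with a modified ERVmap. The treatment of spliced and multiply mapped reads is not given in the sources used here. The deposited values are a normalized signal, CPM after TMM scaling with edgeR, in 4 tables. For MBD-seq the deposited values are raw read counts in windows of 100 bp.

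All values above 0 (100%) were whole multiples of 1 read within 0.05 reads, and reads at LTR loci numbered 246520 to 8161548 per library. Loci were assigned to GENCODE genes, and loci wholly within a gene and touching no exon were summed per gene. Values were tested as log2(CPM + 1 read) with limma 3.58.1 (trended variance) at a mean of at least 5 reads, with all groups of 1 population, and an FDR of 0.05 (Benjamini-Hochberg). MBD counts were tested with edgeR 4.0.16 (quasi-likelihood, TMM, filterByExpr). Alternatives were other pseudocounts (0.25 and 4 reads), filters (none or 20 reads) and scalings, edgeR and DESeq2 1.42.0 on the recovered reads, loci of at least 100 bp, a replicate block, a random effect for the first number in the labels of F1 germline libraries, and each library left out in turn. R 4.3.3 and Python 3.11.15 were used.

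The members and lists were chosen with earlier results of these data known. Named genes were those that passed or else the 3 most abundant of a list, the 5 genes most like Atf3, and neighbours; Batf3 and Nenf, Slc7a11, Crem and Hsf2, Eif2ak1 and Herpud1, Vash2 and Tmem206, the single markers, and the list genes named for P5 against P4 cells, were picked with their values in view. Both tests were also run on simulated data with known changes. QSEA, the input library and exon counts were not used here.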

Additional observations from a re-analysis of the deposited data

Results flagged for a closer look

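1 result was flagged. In F1 P6 cells, DMSO library 12 had an Atf3 intron level of 22.9 CPM, far above the other 4 DMSO libraries (1.83 to 5.02 CPM). The gap to the next library was 0.848 of the group's range, past Dixon's critical value of 0.710 for 5 samples. Of the 15 groups looked at this way, 1 was flagged, and chance flags about 1 in 20. The gene was chosen on a comparison that includes these libraries, so that rate need not hold here and the flag is a description. The cause was not tested.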

How the results depend on the processing

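The calls at the 3 Atf3 loci in F1 P6 cells depended on the processing: 0 loci passed with a pseudocount of 0.25 reads, with DESeq2 and without TBT libraries 7 and 8, and 0 to 3 passed when single libraries were left out (0 without DMSO 1, 2, 3 or 4 or without TBT 6, 7 or 9). The fitted difference of the Atf3 sum stayed positive in all alternatives, from 1.91 (edgeR) to 2.99, and from 2.09 to 2.99 when single libraries were left out. In F3 P6 cells it stayed negative, from -1.32 to -0.69. As single values in exact permutation tests, F1 P4 (-1.34, p = 0.0391) and F1 P5 (2.03, p = 0.0333) fell under 0.05, without correction over genes. F1 P4 ranged from -1.61 to -1.15, F1 P5 from 1.00 to 2.95 and F3 P5 from 2.05 to 3.59 over left-out libraries. The F3 P4 difference reversed to 1.17 without libraries under 2000000 reads, and ran from -0.86 to 0.92 over left-out libraries, being positive (0.35, 0.35, 0.92 and 0.20) without TBT 5, TBT 9, DMSO 3 or DMSO 4.

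Over left-out libraries, P5 against P4 cells ranged from 0.55 to 1.23 in F1, passing without DMSO 44-1 P5 alone, and from 1.06 to 1.94 in F3. The TBT difference in P5 minus that in P4 ranged from 2.34 to 4.30 in F1 and from 1.78 to 3.74 in F3. Over all alternatives the lowest values of these were 0.55, 0.80, 2.05 and 0.67. Of the list genes, 1 (Nfil3, 1.56) passed in F1 P6 cells without DMSO 12, and 1 (Sel1l) in F3 P6 cells with DESeq2, against 0 otherwise. The methylation sum of F1 was -0.0252, -0.0065 and -0.0459 without TBT 6, TBT 7 or DMSO 2, in a range of -0.0459 to 0.11, and that of F3 ranged from 0.0174 to 0.251. The cause of these changes was not tested, apart from the smaller number of libraries.

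Labels of P4 and P5 share replicate numbers, but do not say that a number marks an animal. Same-numbered libraries correlated in their deviations at -0.01 to 0.20 in F1 (11 pairs) and at -0.09 to 0.38 in F3 (9 pairs). With a replicate block the P5 against P4 difference was 0.81 in F1 (limma adjusted p = 0.257) and 1.40 in F3 (0.373), the difference of TBT effects 3.38 (0.404) and 2.85 (0.900), and no call on Atf3 changed. DMSO and TBT groups share no replicate numbers, so that no paired analysis of exposure was possible.

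Depth limits the germline values most, where 1 read per locus is a visible share of the level, and the intron level cannot be split into reads of the LTRs and reads spliced over them. Libraries of P6 cells mix cell types, and the summed markers of macrophages, germline and endothelial cells had different ranges in the groups, which were not tested.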
